A study of Mus musculus with 32 samples.

Results

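The mature microRNAs described here are the arms of the hairpins from miR-379 to miR-410 on mouse chromosome 12, the cluster that was deleted in the study. They were chosen by name, as both arms of 36 listed hairpins. Of these hairpins, 35 could be matched to the deposited counts, each with a 5p and a 3p arm, which gave 70 arms among 1907 mature microRNA accessions. miR-654 was not analysed here.

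The cells were mouse embryonic stem cells (ESCs) of hybrid background, at day 0, and neurons induced from them (iNs), at day 10, with doxycycline acting on a TetO-Ngn2 transgene. Control cells were Mirg(fl/+), that is, they carried a loxP-flanked allele of the cluster, and deletion cells were Mirg(Delta/+), with the maternal copy of miR-379/410 removed and the other copy still present in both genotypes. Small RNA-seq and ribosomal-RNA-depleted RNA-seq each had 3 libraries, lettered A to C, per genotype and cell type. Another assay, seCLIP of Ago2 carrying an HA tag, used iNs of the control genotype expressing HA-Ago2 or untagged Ago2, with 2 libraries for each input and each anti-HA precipitate. The labels do not say whether the letters stand for separate cultures or clones, and every p-value below therefore rests on the spread among these libraries, which may be technical.

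A microRNA hairpin is cut by Drosha and then Dicer into a short duplex. One strand of the duplex, the 5p or the 3p arm, is kept by an Argonaute protein such as Ago2, and the other is usually degraded. The kept strand pairs with messenger RNAs mainly through its seed. The cluster from miR-379 to miR-410 lies in the imprinted Dlk1-Dio3 domain, is expressed from the maternal chromosome and is known for its expression in the brain and in pluripotent stem cells.

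The first hairpin, Mir379, starts at base 109709060 and the last, Mir410, ends at base 109743795 of chromosome 12 (GRCm38.p6, the build also called mm10), a span of 34.7 kb. RefSeq holds the mature sequence of 66 of the 70 arms. miR-376c-3p, miR-487b-3p, miR-539-3p and miR-485-5p are named without a sequence. The sequences below are printed 5′ to 3′, with the seed (bases 2 to 8) in capitals, and all are encoded on the plus strand. The most abundant arm over the control libraries was miR-382-5p (chr12:109733781-109733802).

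miR-382-5p: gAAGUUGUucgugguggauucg

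The 66 sequences held 61 different seeds, and 5 seeds were shared by a pair of arms each. They are shown because arms with one seed can pair with the same sites and because their counts can be set side by side.

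miR-379-5p: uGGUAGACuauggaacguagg

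miR-1193-5p: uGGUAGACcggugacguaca

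miR-379-3p: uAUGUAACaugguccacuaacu

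miR-411-3p: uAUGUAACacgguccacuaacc

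miR-1197-5p: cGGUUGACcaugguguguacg

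miR-758-5p: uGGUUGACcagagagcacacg

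miR-494-5p: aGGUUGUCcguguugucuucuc

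miR-410-5p: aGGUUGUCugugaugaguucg

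miR-376c-5p: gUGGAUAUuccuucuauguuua

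miR-376b-5p: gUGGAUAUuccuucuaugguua

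Within these pairs miR-376c-5p and miR-376b-5p differ at 1 of 22 bases and miR-379-3p and miR-411-3p at 2 of 22. Other arms named below are also close: miR-376b-3p and miR-376a-3p differ at 3 of 21 bases, miR-300-3p and miR-381-3p at 3 of 22, and miR-379-3p and miR-758-3p at 3 of 19. Reads of such near-identical arms may have been divided between them by the counting, so their values are uncertain. For 12 of the seeds the RefSeq table also lists at least one microRNA that is not among these arms. An example is the seed of miR-410-3p, shared with miR-344d-3p.

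The remaining sequences belong to hairpins whose arm ratio carries a result below, printed so that the arms can be compared. miR-411-3p and miR-376b-5p are shown above.

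miR-154-5p: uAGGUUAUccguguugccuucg

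miR-154-3p: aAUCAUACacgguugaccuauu

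miR-543-5p: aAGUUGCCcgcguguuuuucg

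miR-543-3p: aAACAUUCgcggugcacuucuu

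miR-409-5p: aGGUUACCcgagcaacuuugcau

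miR-409-3p: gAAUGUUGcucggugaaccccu

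miR-411-5p: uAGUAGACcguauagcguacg

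miR-376b-3p: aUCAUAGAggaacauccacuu

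miR-485-3p: aGUCAUACacggcucuccucuc

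miR-154 is encoded at chr12:109738438-109738459 (5p) and chr12:109738474-109738495 (3p), miR-543 at chr12:109717269-109717289 and chr12:109717304-109717325, and miR-409 at chr12:109743172-109743194 and chr12:109743204-109743225. The higher arm of a hairpin began with U in 14 of the 30 cluster hairpins with at least 30 counts in control ESCs (46.7%), against 54.5% of 165 other hairpins. The lower arm began with U in 36.7% of the cluster hairpins and in 19.4% of the others. In control iNs the shares for the higher arm were 48.4% and 52.1%, and for the lower arm 35.5% and 16.5%. These shares are descriptions and were not tested.

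The small RNA libraries held 744279 to 1532230 counts on mature microRNAs. The listed ESC genes, Pou5f1 and Nanog among them, summed to 1883 to 1956 CPM (counts scaled to a common library size) in control ESC RNA-seq libraries and to 8.79 to 9.35 in control iNs, while the neuronal genes summed to 158 to 164 and to 4816 to 4974. The fibroblast list summed to 45.4 to 52.4 in control ESCs and 4.7 to 6.27 in control iNs. The astrocyte list, with Gfap and Aqp4 under 1 CPM, summed to 8 to 9.1 and 21.3 to 24.2, the oligodendrocyte list to 7.87 to 12.1 and 37.1 to 40.5, and the microglial list to at most 0.18. miR-1a-3p, known from muscle, was at 247 to 332 CPM of mature counts in control ESCs and at 9372 to 10299 in control iNs. The part of other cell types in the results below was not tested, and fewer cells of a type and less RNA per cell cannot be told apart in such bulk samples.

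The cluster made up 7.9%, 8.59% and 8.65% of all mature microRNA counts in control ESC libraries A, B and C, and 12.1%, 12.4% and 12.8% in control iN libraries. The 3 iN shares all lay above the 3 ESC shares. The arms were far from equal. In control ESCs the 5 arms with most counts held 56.2% of the cluster's 234679 counts and the top 10 held 81.8%, and in control iNs the same ranks held 62.7% and 81.5% of 539457. At the other end, 4 arms had 0 counts in control ESCs and 6 in control iNs. The annotated rows of miR-382-3p and miR-494-5p were at 0 in all 6 control libraries.

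miR-379-5p, from the first hairpin, stood highest in control ESCs, at 12875, 13439 and 15682 CPM, and had 15622, 13675 and 16393 CPM in control iNs. The ranges of the cell types overlapped. miR-382-5p had 8311, 9217 and 10661 CPM in control ESCs and 43934, 42910 and 44012 CPM in control iNs, where it was the highest arm by far. Its share of all cluster counts was 11.9%, 12% and 12.3% in ESCs and 32.7%, 33% and 31.7% in iNs. The iN shares stood well clear of the ESC shares. miR-300-3p had 5007, 5966 and 6001 CPM in ESCs and 8630.2, 8461 and 10566 CPM in iNs. miR-134-5p, known for limiting the size of dendritic spines through Limk1, had 3190.5, 3908 and 4909 CPM and 7873, 7237 and 7948 CPM. For miR-382-5p, miR-300-3p and miR-134-5p every iN value lay above every ESC value.

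miR-323-3p had 2512, 3019 and 3566 CPM in ESCs and 8789.7, 8162 and 8502 CPM in iNs. miR-541-5p had 4158, 4831 and 5398 CPM and 7216, 6181 and 7107 CPM. miR-369-3p, known for binding AU-rich elements, had 2397, 2545 and 2866 CPM and 3977, 3916 and 4134 CPM. All 3 were again higher in every iN library. miR-409-3p had 4711, 6677 and 7866 CPM in ESCs and 5929.6, 5595 and 5688 CPM in iNs, and miR-411-5p had 4707, 5434 and 5968 CPM and 4404, 4172 and 4713 CPM. Both overlapped between cell types. miR-376b-3p, of the miR-376 family whose RNAs are known to be A-to-I edited in brain, went the other way, with 7335, 7774 and 9370.1 CPM in ESCs and 2852.80, 3167 and 2679.8 CPM in iNs and no overlap.

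The last hairpin, miR-410, was low. Its 3p arm had 95.1, 75.5 and 60.5 CPM in ESCs and 87, 104 and 90.9 CPM in iNs, and its 5p arm 44, 41.4 and 58.8 CPM and 29, 30.8 and 27.1 CPM. The 5p arm was lower in every iN library, while the 3p arm overlapped.

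**Figure D1:**
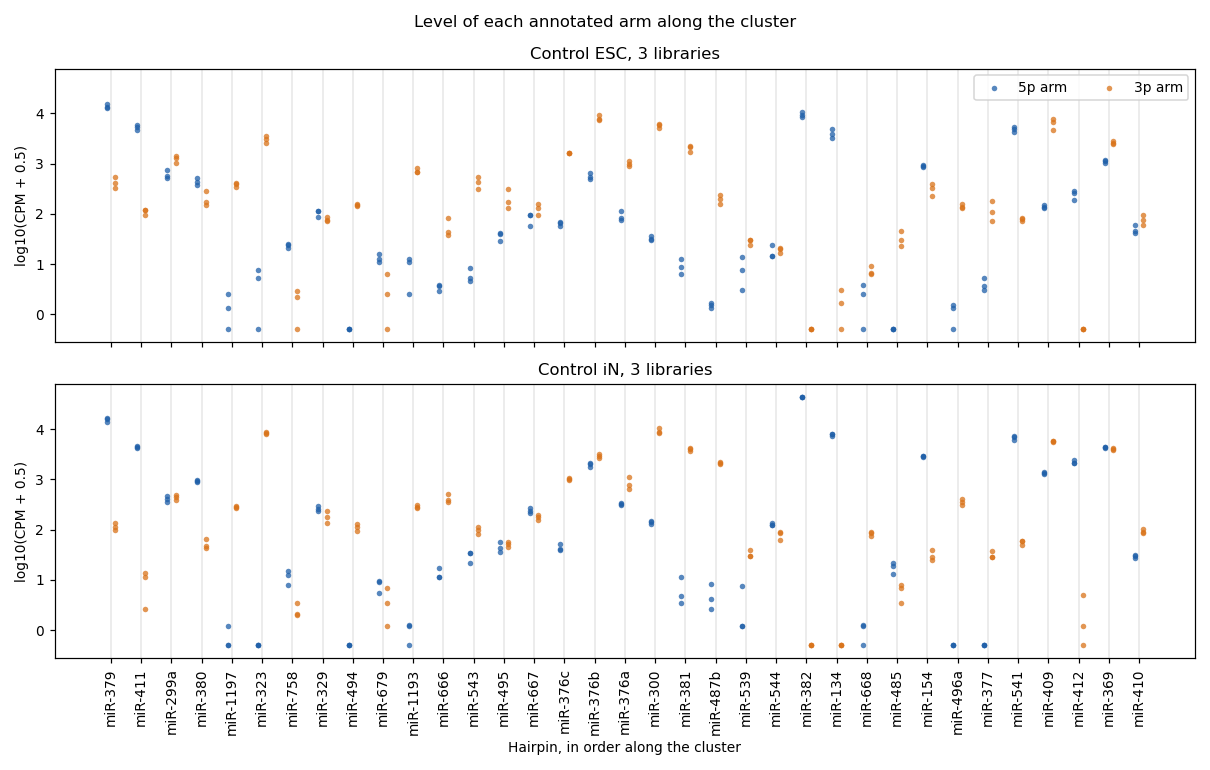
Level of each annotated arm in the 3 control ESC libraries (top) and the 3 control iN libraries (bottom), as log10(CPM + 0.5), for the 35 hairpins in their order on the chromosome; each point is 1 library, 5p arms in blue and 3p arms in orange. By the sum of both arms and the hairpin's own count, which is not plotted, adjacent hairpins differ over 10-fold in 7 of 34 pairs in each cell type. The highest point in iNs is miR-382-5p.

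Level showed little relation to position along the cluster. For the sum of both arms and the hairpin's own count, the Pearson correlation of log2 CPM with the distance from miR-379 was -0.12 in control ESCs and 0.08 in control iNs (Spearman -0.18 and 0.02, 35 hairpins of the same libraries). Between the cell types these sums correlated at 0.85. Their log2 change from control ESCs to control iNs had a Pearson correlation of 0.37 with that distance (Spearman 0.35), which was not tested. Adjacent hairpins differed 4.21-fold in the median over 34 neighbouring pairs in iNs. Among the steepest steps were miR-544 to miR-382, 204-fold in iNs and 273-fold in ESCs, and miR-134 to miR-668, 86-fold and 149-fold. The points of these descriptions share libraries, depth and a library kit.

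In control iNs against control ESCs, more cluster arms rose than fell. Of 70 arms, 56 passed the filter on low counts, 27 rose and 17 fell (edgeR quasi-likelihood test, Benjamini-Hochberg adjusted p under 0.05). Over all 523 mature microRNAs tested, 41.5% were called higher and 44.2% lower, so the share that changed was near the background in this comparison. The median log2 change was 0.39 over the cluster arms tested and -0.24 over all. With the total of all features as library size these medians were 0.98 and 0.48, so small changes depend on the library size used. The changes given below are those after TMM scaling of mature counts and are not re-centred on the median of all microRNAs. The 14 arms not tested had at most 32 counts in all over the 6 control libraries. Each of the 44 called arms had no overlap between the cell types. They were picked by the test on these same libraries, so this is not further evidence.

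By arm, 17 of the 26 5p arms tested rose and 4 fell, with a median log2 change of 1.45. Over all microRNAs, 43.7% of 245 5p arms tested rose and 44.9% fell, with a median of -0.27. Of 30 cluster 3p arms 10 rose and 13 fell, with a median of -0.34, beside 40.2% and 42.9% of 259 3p arms over all microRNAs, with a median of -0.19. The difference between the cluster's 5p and 3p arms was not tested as such. Of the 56 cluster arms tested, 6 had a mean under 10 counts in at least 1 cell type. Among these, miR-381-5p was under 10 in both cell types, and the others passed through the cell type in which they were higher. Without these 6 arms, 14 of 22 5p arms rose and 4 fell, and 9 of 28 3p arms rose and 12 fell. The 5p arms together made up 53.6%, 53.8% and 54.9% of the cluster's mature counts in control ESCs and 69.9%, 68.9% and 69% in control iNs. Without the miR-382 hairpin the shares of the summed counts were 47.9% and 54.6%.

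Of the 6 arms with the largest fitted rises, miR-485-5p and miR-668-3p were close to 0 in ESCs. The annotated row of miR-485-5p, a microRNA known for targeting the synaptic vesicle protein SV2A, had 0 counts in each ESC library and 29, 23 and 17 counts in iN libraries A, B and C. miR-668-3p had 5, 6 and 10 counts in ESCs and 116, 111 and 99 in iNs. Both passed the filter on low counts only through the iN libraries, where they were high, so they are given as counts without a fold or a p-value. miR-487b-3p went from 158, 197 and 237 to 2094, 2244 and 2036 CPM, a log2 change of 3.42 ± 0.18 (SE, n = 3 per group, edgeR adjusted p = 8.23e-11). For these 3 arms every iN value lay above every ESC value.

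miR-409-5p had 134, 127 and 147 CPM in ESCs and 1313, 1395 and 1285 CPM in iNs, a log2 change of 3.28 ± 0.16 (edgeR adjusted p = 5.22e-11). miR-412-5p had 184, 254 and 287 CPM and 2108, 2087 and 2429 CPM, a log2 change of 3.18 ± 0.18. miR-666-3p had 38, 42.4 and 81 CPM and 394, 361 and 508 CPM, a log2 change of 2.94 ± 0.27. miR-409-5p and miR-412-5p come from hairpins that are neighbours near the end of the cluster. Among the abundant arms, miR-382-5p rose by 2.21 ± 0.15, miR-323-3p by 1.48 ± 0.15, miR-134-5p by 0.94 ± 0.16, miR-300-3p by 0.70 ± 0.15, miR-369-3p by 0.62 ± 0.14 and miR-541-5p by 0.51 ± 0.14, with edgeR adjusted p-values from 1.62e-09 to 0.00406.

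The 6 largest falls were all 3p arms. miR-411-3p had 116, 117 and 94.6 CPM in ESCs and 2.17, 11.1 and 13.2 CPM in iNs and fell by 3.62 ± 0.36 on the log2 scale (edgeR adjusted p = 1.91e-07). miR-154-3p had 383, 222 and 329.8 CPM and 24.6, 38.7 and 28.6 CPM and fell by 3.34 ± 0.26. miR-485-3p had 19, 29 and 52 counts in ESCs and 4, 8 and 10 in iNs, and it passed the filter only through the ESC libraries, so no fold is given. In all 3 every iN value lay below every ESC value. miR-543-3p had 542, 318 and 429.5 CPM in ESCs and 79.7, 111 and 98.2 CPM in iNs and fell by 2.16 ± 0.23. miR-495-3p had 305, 131 and 175 CPM and 55.8, 52.2 and 44 CPM and fell by 2.0 ± 0.29. miR-380-3p had 280.4, 171 and 147 CPM and 42, 64.8 and 47.7 CPM and fell by 1.95 ± 0.27. These 3 arms did not overlap between cell types either.

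At the ends of the cluster, miR-379-3p had 528, 319 and 404 CPM in ESCs and 95.7, 133 and 112 CPM in iNs and fell by 1.87 ± 0.22 (edgeR adjusted p = 1.05e-06), while the change of miR-379-5p was 0.12 ± 0.14 (adjusted p = 0.422). miR-410-5p fell by 0.74 ± 0.24 (adjusted p = 0.00937), and miR-410-3p had a change of 0.29 ± 0.22 (adjusted p = 0.229). The call for miR-410-5p was lost with DESeq2's Wald test (adjusted p = 0.099) and with the total of all features as library size (0.419). With that total, and with DESeq2's size factors or Wald test, miR-379-5p was called higher (log2 change 0.29 to 0.6).

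Of the 34 other microRNAs of the same domain outside the deleted span, 24 were tested in the same fit, 15 rose and 4 fell, with a median log2 change of 0.70. That list was drawn up with earlier results of these data known and is given for its values alone. When the arms and the hairpin's own row were summed, 16 of 35 cluster hairpins rose and 11 fell, beside 43.6% and 45.6% of 454 hairpins. These sums were added after seeing the data.

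The host transcript was measured in the RNA-seq libraries. Mirg, the noncoding transcript annotated over the cluster's 3′ part (RefSeq places it at chr12:109734981-109749458), had 932, 672 and 789 counts in control ESCs and 455, 685 and 648 in control iNs. In CPM, Mirg was at 44, 40.9 and 42 in ESCs and 29.8, 32.6 and 37.5 in iNs, with no overlap. It fell by 0.34 ± 0.08 (SE) on the log2 scale (edgeR adjusted p = 0.00199), beside 45.1% of 17247 genes called lower and 43.9% higher. Meg3 and Rian, noncoding RNAs of the same domain, rose by 2.16 ± 0.12 and 0.97 ± 0.06. The microRNA counts and Mirg counts are relative to different totals.

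Which annotated arm had more counts differed from hairpin to hairpin. In control ESCs 11 hairpins had more 5p than 3p counts and 24 more 3p, by the mean over libraries, and in control iNs the numbers were 15 and 20. More than 90% of arm counts lay on 1 arm in 23 hairpins in ESCs and 21 in iNs. The most 5p-biased hairpins were miR-382 and miR-134, at 100% and at 99.95% or more 5p respectively in each control library, followed by miR-412, at 99.8% or more. miR-411 had 97.6%, 97.9% and 98.4% 5p in ESC libraries A, B and C and 99.95%, 99.7% and 99.7% in iNs, miR-541 had 98.3%, 98.4% and 98.5% and 99.3%, 99% and 99.2%, and miR-379 had 96.1%, 97.7% and 97.5% and 99.4%, 99% and 99.3%. In these last 3 the iN share was higher in every library. At the 3p end, miR-494 had no 5p count. miR-323, miR-1197, miR-496a, miR-381 and miR-487b had at most 0.775% 5p in any control library.

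The most balanced hairpins were miR-667, with 26.4%, 50.3% and 41.8% 5p in ESCs and 63.8%, 54.5% and 54.8% in iNs, miR-544, with 41.4%, 54.8% and 45.7% and 66.8%, 60.3% and 58.7%, and miR-299a, with 33.4%, 30.1% and 35% and 44.3%, 54.1% and 45.7%. miR-329 had 60.3%, 61.8% and 49% and 52.4%, 57.1% and 68.8%. Its cell types overlapped, while the iN shares of the other 3 lay above the ESC shares. miR-369 had 30.2%, 30.2% and 29.3% in ESCs and 52.9%, 51.9% and 51.2% in iNs, the tightest values of these hairpins. By the mean over libraries, the arm with more counts changed from 3p in ESCs to 5p in iNs for 4 hairpins, miR-667, miR-544, miR-369 and miR-485. None changed in the other direction. In ESC library B, miR-667 and miR-544 already had more 5p than 3p counts. For miR-485 the summed counts were low, with 100 on 3p in ESCs and 69 on 5p and 22 on 3p in iNs.

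Not every read of a hairpin is counted on an arm. The deposited tables give each hairpin a row of its own, separate from its annotated arms. Over the 35 hairpins the mean share of counts on that row ran from 1.95% to 97.4% in control ESCs, with a median of 28.6%, and from 0.822% to 96.9% in iNs, with a median of 23.8%. It exceeded the arms in 8 and 7 hairpins. For miR-494 the 3p arm had 450 counts in the 3 ESC libraries together and the hairpin row 11029, and for miR-485 the 2 arms together had 100 and the hairpin row 2413. miR-758 and miR-679 were similar, with 95.6% and 97.4% of ESC counts on the hairpin row. The levels of these 4 hairpins given by their annotated arms are therefore a small part of their counts. For miR-382 the hairpin row held 2465 counts in ESCs and 15909 in iNs, a mean of 8.01% and 8.34%. The 100% 5p of miR-382 covers the annotated arms alone.

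**Figure D2:**
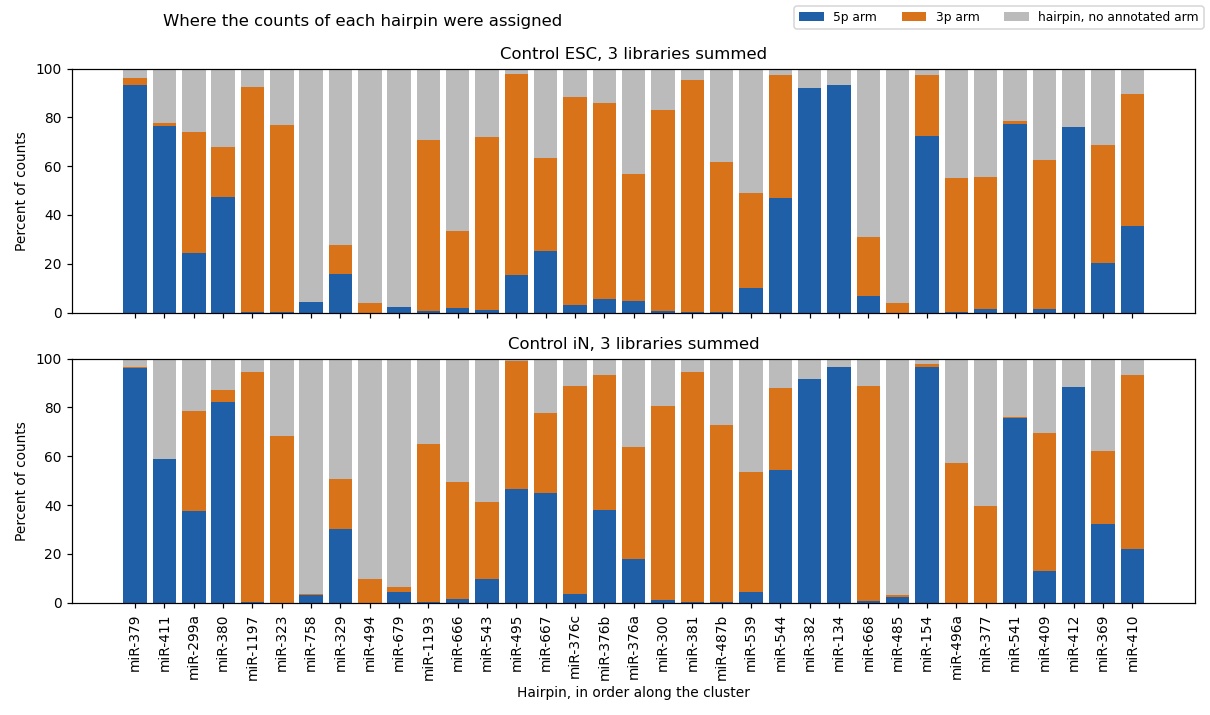
Percent of the summed counts of each hairpin that were assigned to the 5p arm (blue), the 3p arm (orange) or the hairpin row with no annotated arm (grey), for the 3 control ESC libraries (top) and the 3 control iN libraries (bottom). Grey fills nearly all of miR-758, miR-494, miR-679 and miR-485, and blue grows from ESC to iN in hairpins such as miR-376b and miR-495.

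The arm ratio of 5p to 3p was then compared between the cell types. For each library the log2 ratio of 5p to 3p counts, with 0.5 added to each unrounded expected count, was tested with limma over the 132 hairpins in which both arms had a mean of at least 10 counts. Of 35 cluster hairpins 20 passed that filter. Toward 5p 16 moved and toward 3p 1, with a median change of 1.68 on the log2 scale. Among all 132 hairpins 33.3% were called toward 5p and 26.5% toward 3p, with a median of 0.13. The 8 hairpins tested from the rest of the domain had 2 calls toward 5p and 5 toward 3p, with a median of -0.61, and the remaining 104 had 26 and 29, with a median of -0.12. The lists were not tested against each other. Both arms had to be counted, so hairpins with an annotated arm at 0 counts, such as miR-382, are not among these 20. With a mean of at least 10 in both arms in each cell type, a filter added after seeing the data, 17 cluster hairpins remained, of which 14 moved toward 5p and 1 toward 3p, with a median change of 1.39. The 3 that dropped out, miR-485, miR-543 and miR-666, had passed through the cell type in which an arm was high. Over all hairpins that passed the filter in each cell type, 29 were called toward 5p and 23 toward 3p, with a median of 0.15.

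**Figure D3:**
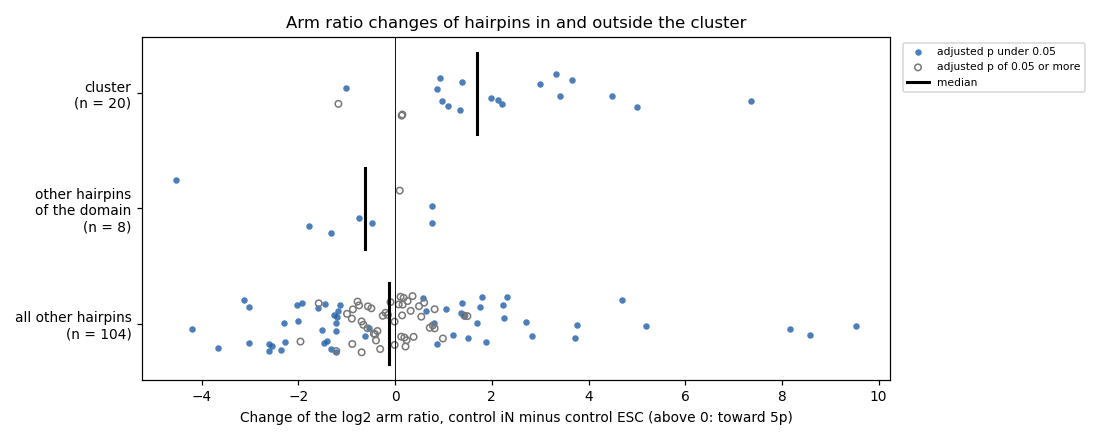
Change of the log2 arm ratio from control ESC to control iN for the 20 cluster hairpins, the 8 other hairpins of the domain and the 104 remaining hairpins tested; each point is a hairpin, filled where the adjusted p was under 0.05, black bars are medians, and vertical scatter within a row has no meaning. The cluster's median lies at 1.68 and those of the other rows below 0.

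Among the hairpins with a mean of at least 10 counts for both arms in each cell type, miR-154 had the largest shift. miR-154 went from 1.21, 1.93 and 1.52 to 6.80, 6.24 and 6.64, a change of 5.01 ± 0.26 (SE, n = 3 per group, limma adjusted p = 1.19e-06). Its 5p arm had 747, 823 and 1110 counts in ESCs and 3854, 3719 and 3918 in iNs, while its 3p arm had 322, 215 and 387 and 34, 49 and 39. The 5p arm was higher and the 3p arm lower in every iN library, and the hairpin row took 2.79% and 2.22% of counts.

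miR-411 went from 5.33, 5.54 and 5.97 to 10.81, 8.54 and 8.43, a change of 3.65 ± 0.62 (limma adjusted p = 0.00146), with 3, 14 and 18 counts left on its 3p arm in iNs. The hairpin row of miR-411 went from 22.1% to 41.1%. miR-409 went from -5.13, -5.71 and -5.73 to -2.17, -2.0 and -2.15, a change of 3.42 ± 0.19 (limma adjusted p = 1.43e-06), while its 5p arm rose. The hairpin row of miR-409 held 37.3% and 30.4% of counts, with 12039 in ESCs beside 409 on the 5p arm. If those counts are given to the arm that makes the change smallest, the change becomes -2.07. The sum of both arms and the hairpin row of miR-409 changed by -0.10 ± 0.16 (edgeR adjusted p = 0.563). miR-376b went from -3.76, -4.00 and -3.88 to -0.69, -0.56 and -0.40, a change of 3.33 ± 0.12 (limma adjusted p = 2.84e-07). In all of these the 3 iN ratios lay above the 3 ESC ratios. miR-485 and miR-543 also had large fitted changes, which rest on an arm that was at or near 0 in ESCs and are therefore given as counts. The 5p arm of miR-543 had 4, 4 and 9 counts in ESCs and 29, 42 and 46 in iNs, and its 3p arm 456, 307 and 504 and 110, 140 and 134, while its hairpin row went from 28.6% to 58.9% of counts. The arms of miR-485 had 100 counts in ESCs, all on 3p, and 91 in iNs, beside hairpin rows of 2413 and 2842 counts.

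Of the other hairpins that moved toward 5p, changes ran from 0.86 for miR-544 to 2.99 for miR-380. The call for miR-544 was lost when any library but ESC library B was left out and with edgeR's diffSpliceDGE, and that for miR-667 when ESC library C or iN library A or B was left out. miR-410 moved toward 3p, from -1.10, -0.86 and -0.04 to -1.58, -1.74 and -1.73, a change of -1.01 ± 0.33 (limma adjusted p = 0.03), and this call was lost when ESC library C or any 1 of the 3 iN libraries was left out. miR-329, miR-376c and miR-666 were not called, with changes of 0.15 ± 0.31, 0.14 ± 0.23 and -1.17 ± 0.46 and limma adjusted p-values of 0.705, 0.643 and 0.056.

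Behind the 16 shifts toward 5p lay different arm changes. By the edgeR calls, the 5p arm rose and the 3p arm fell in 5 hairpins. In 4 only the 5p arm was called, as higher, and in 3 only the 3p arm, as lower. In 3 both rose and in 1 both fell. The same split was not made for hairpins outside the cluster. Over all mature microRNAs tested, 41.5% were called higher and 44.2% lower. An arm that was not called may still have changed, as for miR-667-3p (edgeR adjusted p = 0.0516) and miR-541-3p (0.0549). These calls also depend on the scaling. The 5 with opposite calls were miR-380, miR-543, miR-376b, miR-485 and miR-154, of which miR-543 and miR-485 had the low arms given above. Arm shift and position had a Pearson correlation of 0.081 and a Spearman correlation of 0.0045 over the 20 hairpins, which share libraries.

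**Figure D4:**
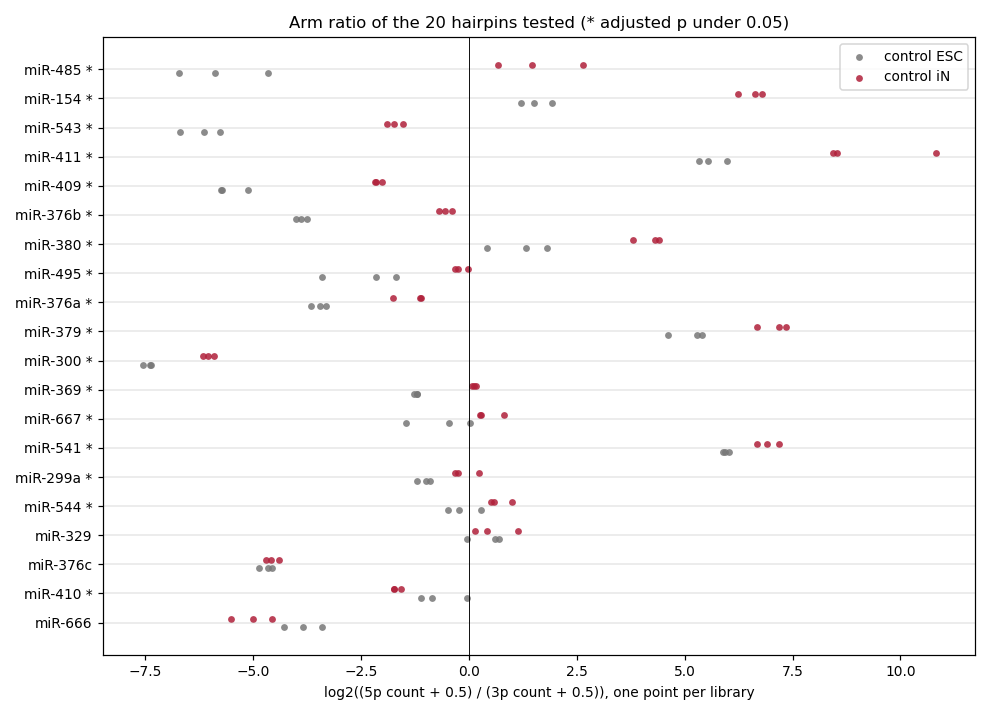
Log2 ratio of 5p to 3p counts (0.5 added to each) in the 3 control ESC libraries (grey) and 3 control iN libraries (red) for the 20 cluster hairpins tested, ordered by the change; a star marks an adjusted p under 0.05. Red points lie to the right of grey ones in the 16 hairpins called toward 5p, and to the left for miR-410.

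The counts on hairpin rows limit these ratios, since the tables do not say which arm those reads came from. If every hairpin-row count is given to the arm that makes the change smallest, 5 of the 16 shifts keep their direction and 3 still have no overlap between cell types, with changes of 3.29 for miR-154, 1.97 for miR-495 and 1.33 for miR-376b. The hairpin row held under 25% of counts in both cell types in 7 of the 16, namely miR-379, miR-495, miR-376b, miR-300, miR-544, miR-154 and miR-541. Its share was higher in iNs than in ESCs for 7 of the 16. The part of the hairpin rows in the shifts was otherwise not tested.

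The authors' deposited lists of Ago2 seCLIP regions from control iNs, given in mm10 with their own log2 fold and no replicate values, bear on the arms from another assay. Of 22496 regions, 19 lay in the cluster's span on the plus strand, and 17 of them overlapped an arm with a RefSeq position. Apart from one region over both arms of miR-666, they lay on 14 arms, 10 of them 3p and 4 5p, and 9 of the 14 were the arm with more counts in control iNs. In the authors' deposited table the log2 fold over input was 6.82 on miR-541-5p, 6.19 on miR-300-3p, 5.31 on miR-381-3p and 4.72 on miR-369-3p. Over the precipitate from cells with untagged Ago2 the authors' deposited table gave 4.42, 4.79, 3.90 and 3.31. These are among 8 of the 14 arms with a p under 0.05 over the untagged precipitate in the authors' deposited table. The other 6, miR-1197-3p, miR-1193-3p, miR-543-3p, miR-376b-3p, miR-539-5p and miR-409-5p, had log2 folds of 0.62 to 2.58 there with a p that did not pass. miR-376b-3p, abundant in both cell types, had 0.73 in the authors' deposited table.

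Arms with few small RNA counts were among these regions. miR-485-3p had a log2 fold of 6.57 over input in the authors' deposited table, beside 4, 8 and 10 small RNA counts in control iN libraries. miR-758-3p had 6.44 in the authors' deposited table, beside 4, 2 and 2 counts. Both belong to the hairpins with over 95% of their counts on the hairpin row. miR-409-5p had 4.49 over input but 0.62 over the untagged precipitate in the authors' deposited table. No region in these lists overlapped miR-382-5p, the arm with most small RNA counts, or miR-379-5p. The authors' deposited table of regions matched to cluster microRNAs listed 98 matches for miR-495-3p, 65 for miR-666-3p and 14 for miR-382-5p, while small RNA counts were highest for miR-382-5p.

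With the maternal deletion, the cluster fell to 0.114% of its control level in ESCs and 0.141% in iNs, from the summed counts scaled by TMM library size. The 70 arms together had 125, 96 and 77 counts in deletion ESC libraries A, B and C and 176, 161 and 187 in deletion iN libraries. Of the 70, 51 were tested in each cell type and all 51 fell (edgeR, Benjamini-Hochberg adjusted p under 0.05). Over all microRNAs tested, 13.8% of 450 were called lower in ESCs and 24.2% of 433 in iNs. The cluster arms themselves were 51 of the 62 lower calls in ESCs and 51 of the 105 in iNs. Higher calls over all microRNAs were 2.44% and 16.9%, and none was a cluster arm. Over all microRNAs called in iNs the share of higher among all calls was 41.0% and became 15.35% with the total of all features as library size, under which all 51 cluster arms still fell. These arms passed the filter through the control libraries, where they were high. Mirg RNA had 0 counts in each deletion ESC library and 2, 0 and 2 in deletion iNs.

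The counts that were left were concentrated. miR-382-5p had 31, 30 and 21 counts in deletion ESCs and 83, 79 and 73 in deletion iNs, against 6994, 8909 and 12510 and 60600, 54305 and 60029 in the controls, or 0.259% and 0.195% of the control level. It made up 24.8%, 31.2% and 27.3% of the cluster counts left in ESCs and 47.2%, 49.1% and 39% of those left in iNs. In each cell type these shares lay above all 3 control shares given above. With 3 libraries against 3 an exact two-sided permutation test cannot give a p-value below 0.1.

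miR-379-5p had 15, 7 and 9 and 11, 7 and 12 counts, or 0.0659% and 0.071% of control. miR-541-5p had 7, 2 and 8 and 13, 10 and 16 counts, or 0.105% and 0.206%. miR-134-5p had 9, 6 and 3 and 11, 9 and 11, or 0.132% and 0.146%. All lay far under the lowest control library. miR-409-3p had 7, 5 and 7 and 8, 6 and 11 counts, and miR-300-3p had 7, 7 and 7 and 5, 4 and 6. Over the 23 arms with at least 1000 counts in control ESCs the residual level ran from 0 to 0.269%, with a median of 0.0954%, and over the 28 such arms in iNs from 0 to 0.329%, with a median of 0.14%.

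Many arms left nothing that could be counted. In all 6 deletion libraries 38 of the 70 arms had 0 counts. They include 15 arms too low to be tested, with at most 49 counts over the 6 control libraries, and 23 of the 55 arms tested in either cell type. Of the 70, 21 had more than 3 counts in at least 1 cell type, 18 of them in both. The arm with most control counts among those at 0 was miR-1193-3p in ESCs, with 2168 control counts, at least 805-fold lower against a floor of 3 counts over the group. In iNs it was miR-666-3p, with 1694 control counts, at least 389.5-fold lower. Both arms of miR-410 were at 0 in every deletion library, at least 83.2-fold lower for the 3p arm in ESCs and at least 86.2-fold in iNs. These floors cover counting error only.

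**Figure D5:**
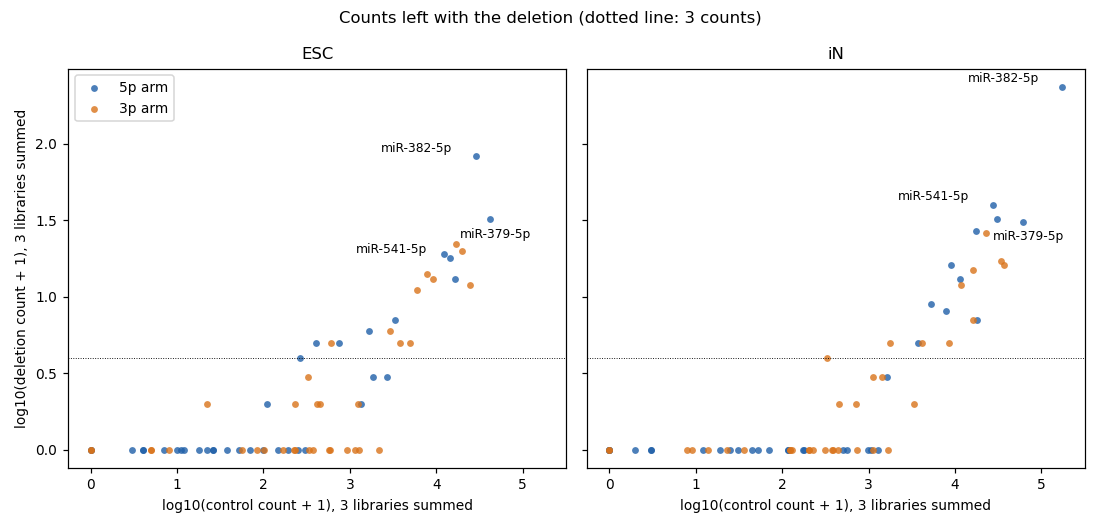
Counts of each of the 70 arms in the 3 deletion libraries against the 3 control libraries, summed and as log10(count + 1), in ESCs (left) and iNs (right), 5p arms in blue and 3p arms in orange; the dotted line marks 3 counts. Arms above the line mostly have many control counts, with exceptions. In ESCs miR-409-5p, with 409 control counts, lies above it, and miR-1193-3p, with 2168, lies below it. The highest point in each panel is miR-382-5p.

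Residual counts were highest for arms with many control counts. Among arms with more than 3 residual counts the Pearson correlation of log2 residual with log2 control counts was 0.83 in ESCs (19 arms) and 0.86 in iNs (20 arms), a choice that leaves out the arms at or near 0, and the arms share libraries. The 5p share of residual counts was 63.2%, 60.4% and 66.2% in deletion ESCs and 82.4%, 78.3% and 77% in deletion iNs, above the control shares in each cell type. Without the miR-382 hairpin the share was 49.1% of 216 counts in deletion ESCs and 62.3% of 289 in deletion iNs, beside 47.9% and 54.6% in the controls. Hairpin rows of the cluster went from 69762 to 67 summed counts in ESCs and from 125748 to 126 in iNs. The source of the residual counts was not tested.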

How the data were processed

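Small RNA and rRNA-depleted RNA libraries, 12 of each, were analysed. The deposited small RNA and RNA-seq files give expected counts from RSEM 1.2.30, and the submitters' processing notes also name cutadapt 1.4.2, STAR 2.4.1d, SAMtools, DESeq2 and the build mm10. Whether the counts use molecular identifiers is not given in the sources used here. The deposited files list microRNA accessions without names. Names were taken from the authors' deposited comparison tables, whose mean normalised count per microRNA (a signal, as deposited) was matched to RSEM's posterior mean counts over size factors solved from the table, at a relative tolerance of 1e-08. All 244 and 218 microRNAs above 200 in those tables matched, and 1032 of 1907 accessions, with 99.99% of mature counts, received a name. Of the cluster arms 67 were named this way and 3 as the other arm of a named hairpin. The authors' log2 fold changes and adjusted p-values in those tables, per the file headers from DESeq2 comparisons, are not reported as results; the fold changes served as a starting point for this match. The log2 folds and −log10 p of seCLIP regions are the authors' deposited values, with replicates not kept apart, and the region caller is not given in the sources used here.

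Rows of one mature sequence were summed and, for edgeR, expected counts rounded. edgeR 4.0.16 (in R 4.3.3, quasi-likelihood F test after TMM scaling of mature counts and a filterByExpr filter at 10 counts) was fitted on the libraries of each comparison, with Benjamini-Hochberg adjustment over all features tested and a threshold of 0.05. CPM divides counts by the TMM library size. Arm ratios were tested with limma 3.58.1 on log2((5p + 0.5)/(3p + 0.5)) of the unrounded expected counts. Both were checked on simulated counts. Alternatives were DESeq2 1.42.0 size factors and Wald test, other filters, pseudocounts, library sizes and count estimates, copies kept apart, 1 fit over all libraries, a replicate block and each library left out.

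Members and lists were chosen with earlier results of these data known. Arms described library by library are the first and last hairpin, the 10 highest in control libraries, the 6 largest rises and falls without overlap, the 6 largest residual counts, the 6 most 5p-biased, 3p-biased and balanced hairpins and the 6 largest called arm ratio changes. Mature sequences and positions are from RefSeq (GRCm38.p6). RNA-seq results of the deletion were not used here, other than the counts of Mirg.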

Additional observations from a re-analysis of the deposited data

How the results depend on the processing

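Most values held. Of the values recomputed for single arms and hairpins, 1208 kept their direction and side of the threshold, 18 lost their call, 8 gained one and 7 changed sign. Of the 1208, 345 came from each deletion comparison, where none changed. For the arm ratio 158 values were kept, 16 lost their call and 2 changed sign. For arm levels between cell types 360 were kept, 2 lost their call, 8 gained one and 5 changed sign. The count of arms that rose in iNs was 27 to 32 over the other alternatives and 16 when arms and hairpin rows were summed, and the count that fell was 14 to 21 otherwise, 11 for these sums and 11 with the total of all features as library size. Fewer features are tested in the sums. The cause of the other changes was not tested. Sign changes were seen for miR-379-5p with copies kept apart (-0.0196), for miR-409-3p with DESeq2's size factors (0.0382), its Wald test (0.0086) and the total of all features (0.29), and for miR-411-5p with that total (0.20). Shifts toward 5p numbered 13 to 16. Shifts toward 3p numbered 2 with a pseudocount of 1, 4 with a mean of at least 3 in both arms, and 0 to 1 with single libraries left out. miR-329, not called, ranged from -0.14 to 0.36 with 1 library left out. In each deletion comparison every cluster arm called that was tested under an alternative fell again.

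The letters A to C were not taken as pairs, since in no comparison did every same-lettered pair correlate above 0.1. Deviations of same-lettered libraries correlated at -0.0328, 0.0278 and 0.0351 between control cell types, at -0.0268, 0.0511 and -0.051 between iN genotypes and at 0.536, 0.0314 and 0.362 between ESC genotypes, where A and C did deviate together and 4 of 6 libraries correlated best with their own letter. With the replicate block the counts were 28 that rose, 16 that fell, 14 toward 5p and 0 toward 3p (miR-410, miR-544 and miR-667 were no longer called), and over all microRNAs in deletion ESCs 60 higher and 119 lower in place of 11 and 62, with the 51 cluster arms still called. In deletion iNs the total of all features gave 33 higher and 182 lower calls in place of 73 and 105. Depth limits the arms with few counts: 14 could not be tested between cell types and 19 in each deletion comparison.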
